A study of Homo sapiens with 6 samples.

Results

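The collagen chain genes of HEK 293T cells were examined in a comparison of wild-type cells (WT) with a TENT3A/B double knockout, here ΔTUT4/7. They were taken as every protein-coding gene whose symbol was COL, a number, A and a number, and whose largest estimated count over the 6 libraries was above 12. Of 40 such genes in a table of 30270, 34 passed that limit and 6 did not. TENT3A and TENT3B are other names of TUT4 and TUT7, which are terminal uridylyltransferases that extend RNA 3′ ends with uridines, and the comparison asked which transcripts change in level when both are lost. HEK 293T is an immortalized human embryonic kidney line. Both groups were untreated HEK 293T cells grown in DMEM with fetal bovine serum, with 3 libraries each of rRNA-depleted total RNA, and they were labelled as differing in genotype alone. The ΔTUT4/7 cells were a line made earlier and given to the study, so a change can belong to that line, and whether it is a single clone is not given in the sources used here. The libraries are numbered as biological replicates, but nothing says that they came from separate derivations of the line, so the p-values measure the spread between these samples.

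Collagens are extracellular matrix proteins whose chains wind around each other into a helix of repeated glycine triplets. Fibrillar collagens build the rope-like fibrils of connective tissue, type IV chains build the sheet-like network of basement membranes, FACIT collagens sit on the surface of fibrils, and transmembrane collagens span the plasma membrane with the helix outside the cell. Other kinds form beaded filaments (type VI), short-chain networks (types VIII and X), anchoring fibrils (type VII) and the multiplexin XVIII, whose end fragment is endostatin. Kidney epithelium is known for its type IV network, in which trimers of the α1 and α2 chains lie in nearly all basement membranes and trimers with α3, α4, α5 and α6 chains in specialised ones.

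Estimated counts summed to between 18757228 and 33148937 per library, and levels of single genes are given as CPM, the usual share of counts in a library, here with library sizes scaled by TMM. The targeted genes were read first as a check of the labels. TUT7 was at 60.4, 62.6 and 64.8 CPM in WT and at 27.2, 25.2 and 26.5 CPM in the libraries labelled ΔTUT4/7. TUT4 went against the label, at 212, 216 and 206 CPM in WT and at 882, 920 and 917 CPM in ΔTUT4/7, and counts per gene cannot show whether such transcripts are intact. Every direction below therefore rests on the libraries labelled ΔTUT4/7. All 6 marker genes listed for HEK 293T cells reached 1 CPM in both groups, with a sum of 545 to 584 CPM in WT and 1355 to 1366 CPM in ΔTUT4/7, most of it VIM. They moved both ways, since VIM (log2 fold change 1.33), CDH2 (1.19) and KRT18 (0.54) were higher and KRT8 (-1.54), LHX1 (-0.98) and PAX2 (-0.56) lower at a false discovery rate (FDR) of 0.05. Of 6 fibroblast markers 3 were measured, summing to 3.99 to 5.29 CPM in WT and 3.41 to 4.19 CPM in ΔTUT4/7. The 3 endothelial markers measured summed to 0.848 to 1.07 CPM in WT and 0.155 to 0.460 CPM in ΔTUT4/7, with TEK at 0 in ΔTUT4/7. DCN, LUM, FAP and CDH5 were not analysed here. The part of these marker levels in the collagen differences was not tested.

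Collagen transcripts took a smaller share of the ΔTUT4/7 libraries. Their counts made up 0.101%, 0.0965% and 0.0986% of all counts in WT and 0.0446%, 0.0399% and 0.0438% in ΔTUT4/7, so the groups did not overlap. Much of that difference lay in COL4A5 (18627 counts summed over WT and 2511 over ΔTUT4/7), COL14A1 (13411 and 459) and COL4A6 (8354 and 1641). In bulk RNA such as this, fewer cells making a collagen and less RNA per cell cannot be told apart. At an FDR of 0.05 in edgeR's quasi-likelihood test, adjusted over the 23952 genes tested, 19 of the 34 collagen genes were lower in ΔTUT4/7, 6 were higher and 9 were not called. Over all genes tested, 57.7% were called, 29% lower and 28.6% higher, and over protein-coding genes 69.8% were called, 31.8% lower and 37.9% higher. A decrease of at least 2-fold was called for 15 collagen genes and an increase of that size for 0, although COL18A1 came to 1.98-fold and the second count was 0 to 2 with a library left out. The shares over all genes were 12.4% lower and 5.9% higher by at least 2-fold, 18.3% in either direction, and over protein-coding genes 10.6% and 6.26%, 16.9% in either direction. The 2 groups of libraries did not overlap in 25 collagen genes, 19 lower and 6 higher, against 62.8% of all genes and 73.3% of protein-coding genes. The median log2 fold change was -0.57 over the collagen genes, -0.02 over all genes tested and 0.05 over protein-coding genes tested.

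The count limit itself favours differences among low genes. COL2A1, COL3A1 and COL21A1 passed it through the WT libraries alone, so each had to be lower to be listed with low ΔTUT4/7 counts. Among the 31 collagen genes past the limit in each group, 16 were lower and 6 higher, 12 of them lower by at least 2-fold, with a median of -0.44. Of all protein-coding genes tested, 31.8% were lower, 37.9% higher and 10.6% lower by at least 2-fold. That background also holds genes past the limit in 1 group alone, so it is not filtered like the 31. Among the 24 collagen genes whose mean count reached 50, 15 were lower and 4 higher, 11 of them lower by at least 2-fold, with a median of -0.77. Of the 12447 protein-coding genes of that level, 3941 were lower, 5318 higher and 923 lower by at least 2-fold, with a median of 0.08. Just inside the limit stood COL21A1, with a largest count of 24, and COL3A1, with 27. Just outside stood COL20A1, with a largest count of 11, followed by COL16A1 and COL28A1 with 8 each, COL6A5 with 6, COL9A1 with 5 and COL15A1 with 4. COL1A2, COL5A3, COL11A1 and COL22A1 were not analysed here.

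**Figure D1:**
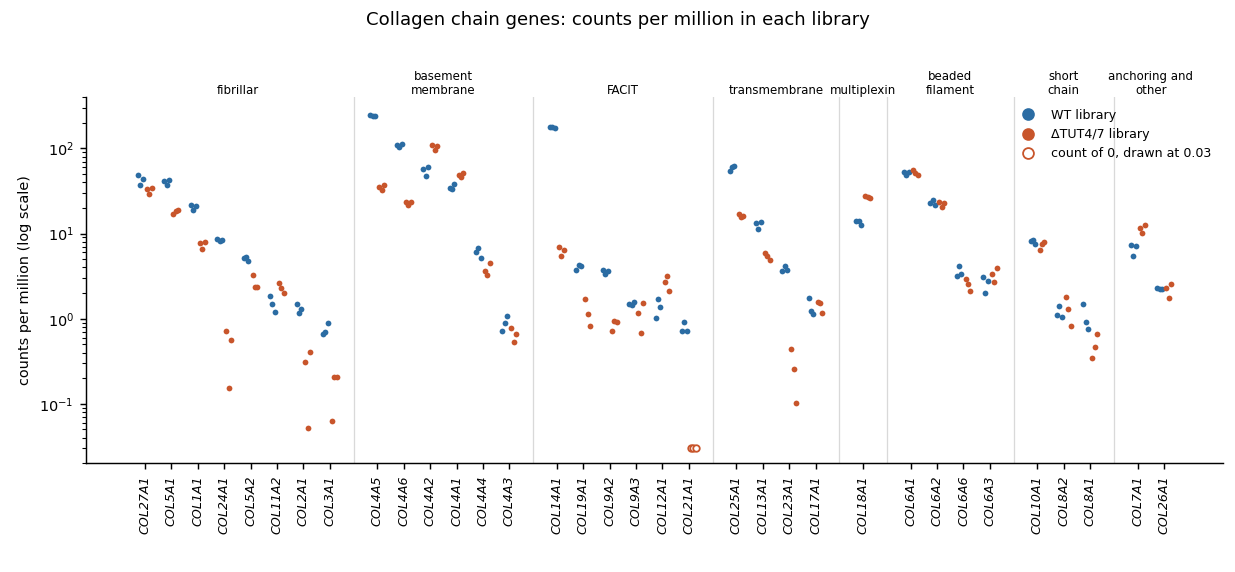
CPM on a log axis for the 34 collagen chain genes, ordered by class and by WT mean, with 1 point per library (3 WT, blue; 3 ΔTUT4/7, orange) and open circles for counts of 0. COL14A1, COL24A1, COL23A1 and COL21A1, which has counts of 0 in ΔTUT4/7, show wide gaps between the groups, COL6A1 and COL6A2 overlap, and COL4A1, COL4A2, COL7A1, COL12A1, COL11A2 and COL18A1 are higher in ΔTUT4/7.

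The fibrillar class fell in 7 of 8 genes and rose in 1, with a median log2 fold change of -1.31, and 5 of the 7 fell by at least 2-fold. The shares over protein-coding genes were 31.8% lower, 37.9% higher and 10.6% lower by at least 2-fold. Without COL2A1 and COL3A1, which passed the limit through WT alone, 5 of 6 fell, 3 of them by at least 2-fold. COL24A1, a fibrillar chain with an interrupted helix, was at 8.55, 8.08 and 8.32 CPM in WT and at 0.718, 0.155 and 0.562 CPM in ΔTUT4/7. Its WT values were tight and all ΔTUT4/7 values lay far below them, a 17.4-fold decrease (log2 fold change -4.00 ± 0.24 SE, n = 3 per group, edgeR adjusted p = 2.83e-11). COL1A1, which encodes the α1 chain of type I, the main collagen of bone and skin, was at 21.7, 18.7 and 20.9 CPM in WT and at 7.74, 6.55 and 8.07 CPM in ΔTUT4/7. The groups did not overlap and differed 2.74-fold (-1.45 ± 0.10, edgeR adjusted p = 1.24e-10). COL5A1, a chain of type V collagen, which nucleates type I fibrils, was at 41.1, 37.5 and 42.7 CPM in WT and at 17.0, 18.2 and 18.7 CPM in ΔTUT4/7. That was a 2.25-fold decrease without overlap (-1.17 ± 0.07, edgeR adjusted p = 1.37e-11). Its partner chain COL5A2 stood at 5.14, 5.27 and 4.79 CPM in WT and at 3.28, 2.37 and 2.35 CPM in ΔTUT4/7, also without overlap (-0.90 ± 0.17, edgeR adjusted p = 0.000119).

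The low fibrillar genes were counted in few reads. COL2A1, the cartilage type II collagen, had 29, 30 and 40 counts in WT and 10, 1 and 8 in ΔTUT4/7, with a log2 fold change of -2.28 ± 0.41. COL3A1, the type III collagen of vessels and hollow organs, had 13, 18 and 27 counts in WT and 2, 4 and 4 in ΔTUT4/7, with -2.34 ± 0.53. Both differences passed the FDR, but both genes had to fall to be listed this way, and their size is known only roughly. COL27A1, another fibrillar chain with an interrupted helix, was at 48.6, 36.8 and 43.2 CPM in WT and at 33.6, 29.1 and 34.5 CPM in ΔTUT4/7. The groups came close to each other there, with a fall of 0.40 ± 0.10 on the log2 scale (edgeR adjusted p = 0.00385). COL11A2, a chain of the cartilage collagen XI, was the fibrillar gene that rose, from 1.83, 1.4998 and 1.21 CPM in WT to 2.62, 2.32 and 1.99 CPM in ΔTUT4/7. Its log2 fold change of 0.64 ± 0.23 was close to the limit of the test (edgeR adjusted p = 0.0217), and the call was lost in DESeq2, in limma on log2(CPM + 1), with library size alone, without WT replicate 3 and without ΔTUT4/7 replicate 1.

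The basement membrane class split by chromosomal pair. COL4A5 and COL4A6, which lie head to head on chromosome X and encode the α5 and α6 chains, fell strongly. COL4A1 and COL4A2, head to head at the end of chromosome 13 and encoding the α1 and α2 chains, rose. Of the 6 genes, 3 were lower, 2 higher and 1 was not called, with a median log2 fold change of -0.54. The shares over protein-coding genes were 31.8% lower and 37.9% higher, 69.8% called in either direction. COL4A5 (hg38 chr X, 108439838 to 108697545) was at 250, 241 and 243 CPM in WT and at 35.7, 32.9 and 37.2 CPM in ΔTUT4/7. The values within a group were close and the groups differed 6.93-fold (-2.79 ± 0.05, edgeR adjusted p = 1.45e-19). COL4A6 (chr X, 108155607 to 108439497) was at 110, 104 and 114 CPM in WT and at 23.8, 21.9 and 23.2 CPM in ΔTUT4/7, a 4.76-fold decrease without overlap (-2.25 ± 0.06, edgeR adjusted p = 1.52e-17). COL4A2 (chr 13, 110305812 to 110513209) was at 56.8, 47.2 and 60.5 CPM in WT and at 110, 95.5 and 107 CPM in ΔTUT4/7. All 3 ΔTUT4/7 libraries lay above all WT libraries, a 1.90-fold increase (0.93 ± 0.09, edgeR adjusted p = 1.01e-05). COL4A1 (chr 13, 110148963 to 110307157) was at 34.4, 33.2 and 38.6 CPM in WT and at 48.2, 46.7 and 51.8 CPM in ΔTUT4/7, a 1.38-fold increase without overlap (0.46 ± 0.07, edgeR adjusted p = 4.76e-06). The third pair, on chromosome 2, was low. COL4A4 stood at 6.01, 6.81 and 5.22 CPM in WT and at 3.68, 3.30 and 4.55 CPM in ΔTUT4/7 (-0.65 ± 0.16, edgeR adjusted p = 0.00149), and COL4A3 overlapped between groups, at 0.713 to 1.08 CPM in WT and 0.534 to 0.780 CPM in ΔTUT4/7 (-0.44 ± 0.33, edgeR adjusted p = 0.267).

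Because the 2 genes of each type IV pair start beside each other, the start regions are shown for the pair that fell and for the pair that rose. They are RefSeq windows on GRCh38.p14, from 250 bases before to 50 bases after a start, given 5′ to 3′ on the strand of the gene. Capitals mark matches on either strand to CCAAT (the CCAAT box), GGGCGG (the GC box) and TATAAA (the TATA box), and no match printed overlaps another. COL4A5 is chrX:108439588-108439887 on the plus strand, COL4A6 is chrX:108439409-108439708 on the minus strand, and COL4A1 is chr13:110307108-110307407 on the minus strand.
COL4A5: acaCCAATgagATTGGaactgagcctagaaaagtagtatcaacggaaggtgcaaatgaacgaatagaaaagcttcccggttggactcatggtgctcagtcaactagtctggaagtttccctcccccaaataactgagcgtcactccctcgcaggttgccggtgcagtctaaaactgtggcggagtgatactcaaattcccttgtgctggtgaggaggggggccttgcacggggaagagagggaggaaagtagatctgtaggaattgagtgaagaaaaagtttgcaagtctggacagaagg
COL4A6: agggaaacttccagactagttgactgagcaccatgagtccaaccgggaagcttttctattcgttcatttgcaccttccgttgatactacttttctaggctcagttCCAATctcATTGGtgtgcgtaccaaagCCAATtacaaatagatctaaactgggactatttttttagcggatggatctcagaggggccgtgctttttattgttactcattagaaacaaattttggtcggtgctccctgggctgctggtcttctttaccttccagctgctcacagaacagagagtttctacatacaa
COL4A1: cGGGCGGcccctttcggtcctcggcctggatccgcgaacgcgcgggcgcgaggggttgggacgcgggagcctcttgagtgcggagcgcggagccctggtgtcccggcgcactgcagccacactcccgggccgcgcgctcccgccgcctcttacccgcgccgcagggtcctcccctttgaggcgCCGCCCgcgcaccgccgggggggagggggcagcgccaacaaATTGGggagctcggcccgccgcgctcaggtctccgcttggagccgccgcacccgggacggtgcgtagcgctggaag

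The COL4A5 and COL4A6 windows share 121 bases, and the COL4A1 and COL4A2 windows share 226, so COL4A2 is not printed. The gene coordinates given above for COL4A1 and COL4A2 overlap. The RefSeq window of COL4A2 (chr13:110307034-110307333) lies inside its gene coordinates, so its RefSeq start differs from the start given above. The COL4A5 window held 2 CCAAT matches and the COL4A6 window 3, with 0 GC boxes in either, while the COL4A1 window held 1 CCAAT match and 2 GC boxes. None of the printed windows held TATAAA. Over 35116 RefSeq windows of this length, 34.6% held CCAAT, 45% GGGCGG and 11.5% TATAAA on either strand. Windows were found for 26 of the 34 collagen genes, 37 windows in all, of which 27% held CCAAT, 54.1% GGGCGG and 21.6% TATAAA. A match describes the letters of these windows and says nothing of which factor binds there.

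The FACIT class held the deepest fall. COL14A1, which binds fibrils through other matrix molecules, was at 179, 178 and 172 CPM in WT and at 7.05, 5.46 and 6.49 CPM in ΔTUT4/7. The 3 WT values were nearly equal and the groups differed 27.8-fold (-4.78 ± 0.07, edgeR adjusted p = 2.8e-21), from 13411 counts summed over WT to 459 over ΔTUT4/7. Of the 6 FACIT genes 4 were lower, each by at least 2-fold, 1 was higher and 1 was not called, with a median log2 fold change of -1.88. Without COL21A1 3 of 5 were lower, with a median of -1.68. The shares over protein-coding genes were 31.8% lower, 37.9% higher and 10.6% lower by at least 2-fold. COL9A2, a chain of the type IX collagen that coats cartilage fibrils, was at 3.77, 3.38 and 3.62 CPM in WT and at 0.718, 0.928 and 0.919 CPM in ΔTUT4/7 (-2.09 ± 0.22, edgeR adjusted p = 5.36e-08). COL19A1 was at 3.72, 4.31 and 4.21 CPM in WT and at 1.72, 1.13 and 0.817 CPM in ΔTUT4/7 (-1.68 ± 0.23, edgeR adjusted p = 1.74e-06). Neither gene overlapped between the groups. COL21A1 had 14, 24 and 22 counts in WT and 0 in each ΔTUT4/7 library. Set against a floor of 3 counts over the ΔTUT4/7 group, it was at least 18.6-fold lower, and no fitted fold change is given because it depends on the prior count. COL12A1, a FACIT of tendon and skin, was the exception in direction, at 1.02, 1.69 and 1.37 CPM in WT and 2.71, 3.14 and 2.09 CPM in ΔTUT4/7 (0.94 ± 0.24, edgeR adjusted p = 0.00183). COL9A3 overlapped between the groups, at 1.44 to 1.56 CPM in WT and 0.671 to 1.54 CPM in ΔTUT4/7 (-0.41 ± 0.28, edgeR adjusted p = 0.228).

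Of the 4 transmembrane collagens, 3 fell by at least 2-fold and none of the 4 rose, with a median log2 fold change of -1.54. The shares over protein-coding genes were 10.6% lower by at least 2-fold and 37.9% higher. COL25A1, whose shed ectodomain is found in amyloid plaques, was at 54.7, 61.1 and 61.8 CPM in WT and at 17.1, 15.5 and 16.2 CPM in ΔTUT4/7. The groups were well apart, with a 3.64-fold decrease (-1.86 ± 0.07, edgeR adjusted p = 3.82e-15). COL23A1 was at 3.67, 4.15 and 3.72 CPM in WT and at 0.437, 0.258 and 0.102 CPM in ΔTUT4/7, a 14.5-fold decrease on 21 counts in the whole ΔTUT4/7 group (-3.70 ± 0.30, edgeR adjusted p = 9.07e-10). COL13A1, a collagen of the neuromuscular junction, was at 13.4, 11.2 and 13.6 CPM in WT and at 5.90, 5.52 and 4.95 CPM in ΔTUT4/7, a 2.34-fold decrease without overlap (-1.21 ± 0.12, edgeR adjusted p = 1.72e-08). COL17A1, a component of hemidesmosomes, overlapped between the groups, at 1.14 to 1.73 CPM in WT and 1.17 to 1.56 CPM in ΔTUT4/7 (0.09 ± 0.26, edgeR adjusted p = 0.778).

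The remaining classes moved less or in the other direction. COL18A1, the multiplexin, was at 14.2, 13.9 and 12.6 CPM in WT and at 27.4, 27.3 and 26.1 CPM in ΔTUT4/7, without overlap (0.99 ± 0.08, edgeR adjusted p = 9.96e-10). On the annotation of the build, 18.5% of the COL18A1 exon bases overlap SLC19A1 on the opposite strand, and whether the counting used strand is not given in the sources used here, so part of its estimated count may belong to that gene. COL7A1, the anchoring fibril collagen, rose from 7.33, 5.46 and 7.08 CPM in WT to 11.7, 10.2 and 12.5 CPM in ΔTUT4/7 (0.80 ± 0.13, edgeR adjusted p = 1.45e-05). Among the beaded filament genes COL6A1 was at 53.4, 48.2 and 53.2 CPM in WT and 55.9, 51.6 and 49.4 CPM in ΔTUT4/7, and COL6A2 at 22.8, 24.5 and 21.7 CPM in WT and 23.5, 20.8 and 22.98 CPM in ΔTUT4/7. Both overlapped, with log2 fold changes of 0.02 ± 0.06 for COL6A1, which changed sign with the scaling used, and -0.03 ± 0.08 for COL6A2. COL6A3 was not called (0.34 ± 0.20). With a GC and length offset COL6A2 (-0.21, edgeR adjusted p = 0.0379) and COL6A3 (0.49, edgeR adjusted p = 0.0442) were called. Without that offset COL6A6 was slightly lower (-0.50 ± 0.19, edgeR adjusted p = 0.0294), a call lost in DESeq2, with the offset, without WT replicate 2 and without ΔTUT4/7 replicate 2 or 3. Of the short-chain genes COL8A1 had 29, 24 and 23 counts in WT and 11, 9 and 13 in ΔTUT4/7 (-1.103 ± 0.38, edgeR adjusted p = 0.0172), and that call was lost in DESeq2, without WT replicate 1 and without ΔTUT4/7 replicate 1. COL8A2 (0.17 ± 0.29), COL10A1 of growth plate cartilage (-0.16 ± 0.12) and COL26A1 (-0.03 ± 0.21) were not called and overlapped between the groups.

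**Figure D2:**
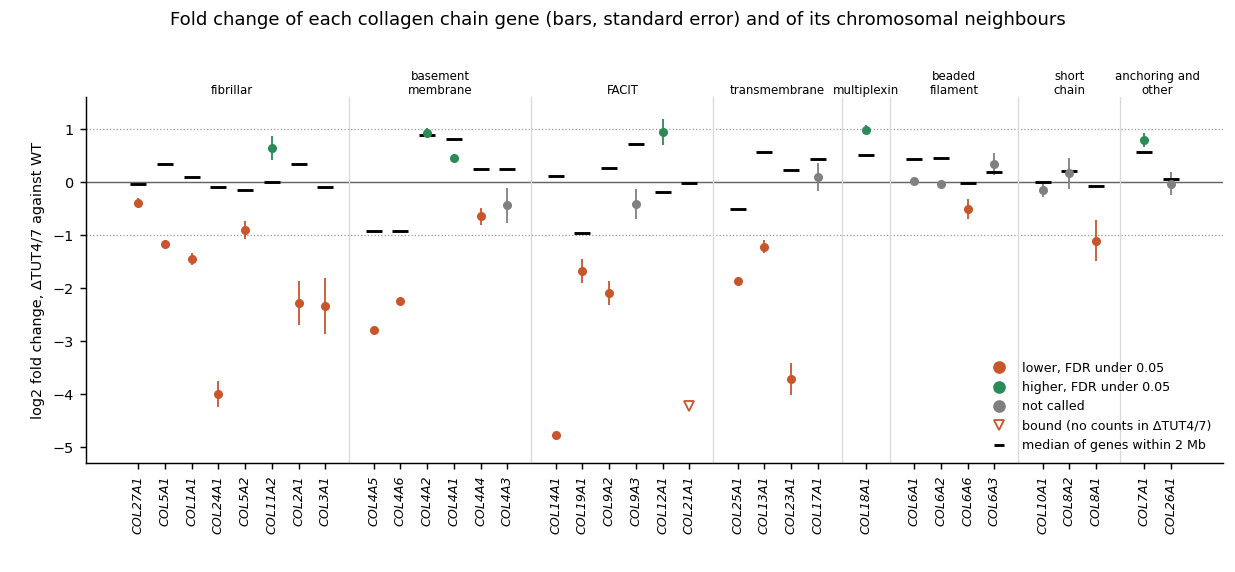
Fitted log2 fold change of each collagen gene, ΔTUT4/7 against WT, with standard error (n = 3 libraries per group), and the median log2 fold change of its chromosomal neighbours as a black dash. The triangle is the bound of COL21A1, which had no counts in ΔTUT4/7, and dotted lines mark a 2-fold change. COL4A1 lies below its neighbours and COL4A2 close to them, and COL4A5 and COL4A6 lie below neighbours that are themselves lower.

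Fold changes in these libraries varied along the chromosomes, so each collagen gene was set beside the tested genes that start within 2 Mb of it and whose mean count reached 50. The neighbours of COL4A1 were 9 genes, all of them higher, with a median of 0.82, and those of COL4A2 were 7 genes, all higher, with a median of 0.88. After subtraction of that median COL4A1 stood at -0.36 and COL4A2 at 0.04. The neighbours of COL4A5 and COL4A6 on chromosome X numbered 24 for each gene and had a median of -0.93, which left -1.86 for COL4A5 and -1.32 for COL4A6. COL19A1 (neighbours at -0.95) and COL25A1 (-0.50) also lay in lowered surroundings and stood at -0.73 and -1.36 after subtraction. COL18A1 lay among neighbours at 0.52 and COL7A1 among neighbours at 0.56, which left 0.47 and 0.23. In contrast, COL14A1 (0.11), COL24A1 (-0.08), COL23A1 (0.24), COL9A2 (0.27), COL1A1 (0.11), COL5A1 (0.35) and COL13A1 (0.57) fell among neighbours whose median was near 0 or higher. The part of chromosomal position in the collagen differences was not tested further.

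Levels were next compared between genes per length, as counts per kilobase of the canonical transcript, scaled to a fixed sum over the 21633 genes with a length (TPM). In WT the order began with COL4A5 at 91.1 ± 5.99 (SD, n = 3), COL14A1 at 53.5 ± 4.39, COL4A6 at 39.7 ± 1.23, COL6A1 at 29.8 ± 1.49 and COL4A2 at 20.6 ± 1.69. COL25A1 at 18.7 ± 1.38 and COL6A2 at 16.3 ± 1.94 followed, each within the spread of the gene next to it, as were COL27A1 at 13.3 ± 1.85 and COL4A1 at 13.1 ± 0.221. In ΔTUT4/7 the order began with COL4A2 at 36.6 ± 3.79 and COL6A1 at 28.2 ± 2.13, followed by COL4A1 at 16.9 ± 1.34, COL6A2 at 14.8 ± 1.39, which overlapped COL4A1, and COL4A5 at 12.2 ± 1.103. COL14A1 moved from rank 2 in WT to rank 15 of the 34 in ΔTUT4/7, at 1.79 ± 0.277. With lengths of all annotated exons joined, COL6A1 came first in ΔTUT4/7 at 32.5 ± 2.64 and COL4A2 next at 18.6 ± 2.05, and COL4A2 moved from rank 5 to rank 9 in WT, so the order of these genes depends on the length used. Among the type IV chains the α5 and α6 genes led in WT by either length, and the α2 and α1 genes led in ΔTUT4/7 by canonical length. With joined exons the α2 gene still led in ΔTUT4/7, but COL4A1 at 11.5 ± 0.970 overlapped COL4A5 at 10.2 ± 0.982.

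By class the summed level per length of all collagen genes went from 362 ± 18.8 in WT to 173 ± 13.5 in ΔTUT4/7. Much of that fall lay in COL4A5 (91.1 to 12.2), COL14A1 (53.5 to 1.79) and COL4A6 (39.7 to 7.78). Basement membrane genes took 45.9% ± 0.559 of the summed level in WT and 43.0% ± 0.869 in ΔTUT4/7, a small shift without overlap. Fibrillar genes took 10.9% ± 0.627 and 11.01% ± 0.336, with overlap. The FACIT share went from 16.5% ± 0.604 to 2.49% ± 0.154 and the transmembrane share from 8.92% ± 0.352 to 5.47% ± 0.382, neither with any overlap between the groups. Most of the FACIT level in WT was COL14A1, at 53.5 of a summed 59.9, and in ΔTUT4/7 that gene was at 1.79 of 4.33. The FACIT gene COL12A1 went the other way, from 0.283 in WT to 0.510 in ΔTUT4/7. The beaded filament share went from 13.2% ± 0.144 to 25.5% ± 0.940, while its summed level was 47.7 ± 2.84 in WT and 44.3 ± 3.39 in ΔTUT4/7. COL18A1 alone went from 1.69% ± 0.121 to 6.51% ± 0.401. With lengths of all annotated exons joined instead, the basement membrane share was 39.5% in WT and 32.2% in ΔTUT4/7 and the FACIT share 19.6% and 2.89%. Differences between classes in their fold changes were described by counts and medians only and were not tested.

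**Figure D3:**
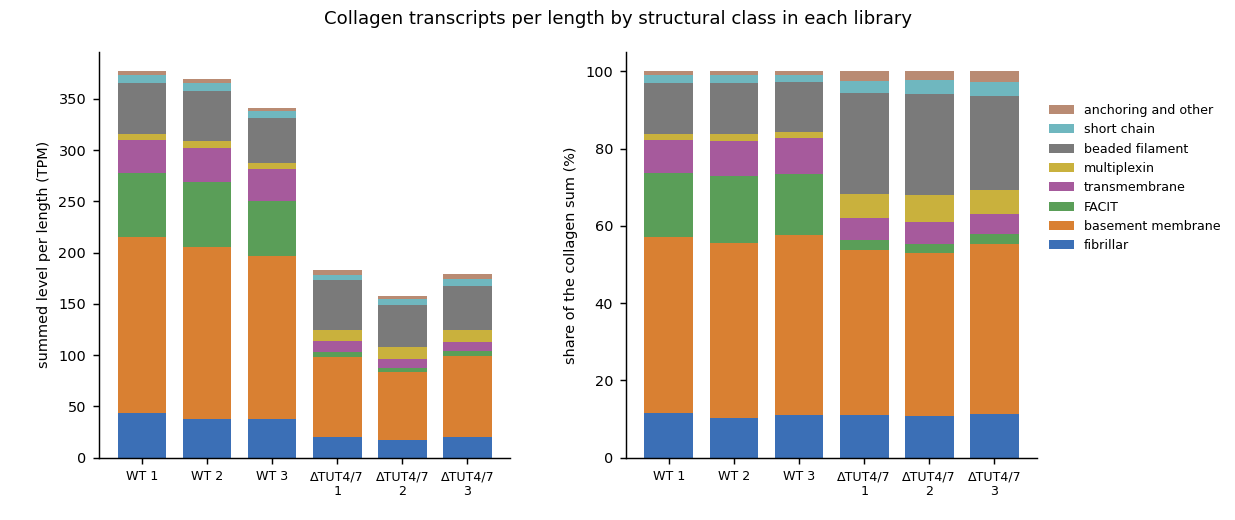
Left, summed level per length of the collagen genes of each structural class in each of the 6 libraries (TPM, scaled over genes with a length). Right, the same as a share in percent of the collagen sum. The sum is 362 ± 18.8 in WT and 173 ± 13.5 in ΔTUT4/7 (SD, n = 3). The FACIT band, most of which is COL14A1 in WT, nearly disappears in ΔTUT4/7, and the beaded filament band widens as a share.

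Chains that share a trimer or a start region were compared within each library, because a ratio of their estimated counts needs no scaling. Of 12 pairs listed, 9 had both chains past the count limit. With 3 libraries against 3 the exact two-sided permutation test cannot go below p = 0.1, which becomes 0.225 after adjustment over the 9 pairs, so no pair could pass a threshold of 0.05. The log2 ratio of COL4A1 to COL4A5, chains of different type IV trimers, was -2.86, -2.86 and -2.65 in WT and 0.43, 0.50 and 0.48 in ΔTUT4/7. That is a change of 3.26 ± 0.07 (SE) without overlap (exact permutation p = 0.1). COL4A5 to COL4A6 went from 1.18, 1.21 and 1.098 to 0.58, 0.59 and 0.68, so the α5 gene fell further than its α6 neighbour by 0.54 ± 0.05 on the log2 scale, in every library. COL4A1 to COL4A2 went from -0.72, -0.51 and -0.65 to -1.19, -1.03 and -1.05, so the α2 gene rose further. COL9A2 to COL9A3 went from 1.35, 1.23 and 1.22 to -0.70, 0.47 and -0.75, with a wide spread in ΔTUT4/7.

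The other 5 pairs overlapped between the groups. COL6A1 to COL6A2 changed by 0.05 ± 0.11 (SE), COL5A1 to COL5A2 by -0.22 ± 0.22, COL4A3 to COL4A4 by 0.22 ± 0.29, COL6A1 to COL6A3 by -0.32 ± 0.23 and COL8A1 to COL8A2 by -1.16 ± 0.69 on the log2 scale. These spreads leave room for changes of the size of their errors, and the last pair rested on few counts.

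**Figure D4:**
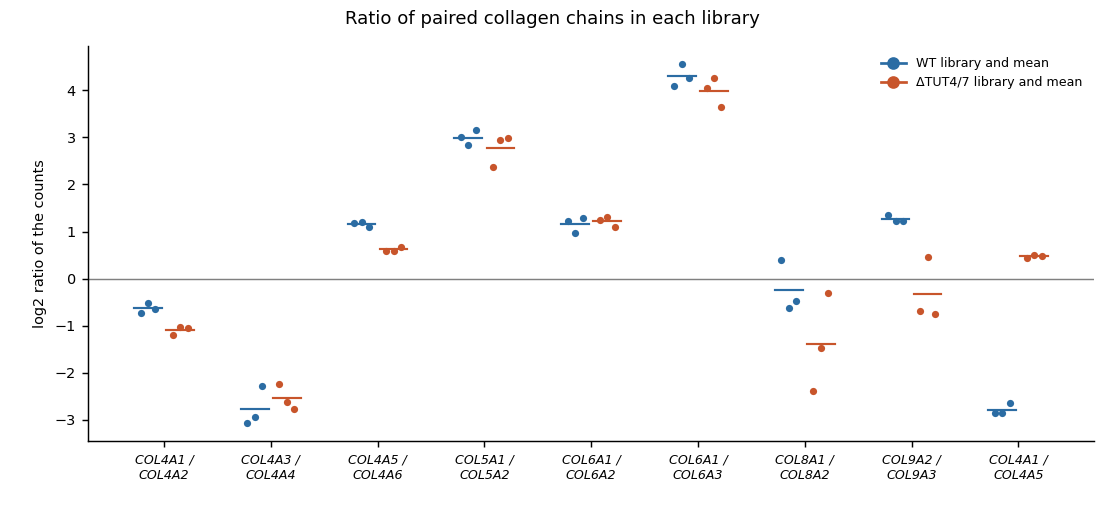
Log2 ratio of the estimated counts of 9 pairs of collagen chains in each library, with the mean of 3 WT (blue) and 3 ΔTUT4/7 (orange) libraries as a line. COL4A1 to COL4A5 changes by 3.26 and crosses 0, the COL4A5 to COL4A6, COL4A1 to COL4A2 and COL9A2 to COL9A3 pairs shift without overlap, and the other pairs overlap.

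Collagen transcripts were also searched for sites of microRNAs, which pair with 3′ UTRs through their seed (bases 2 to 8). The let-7 family was chosen because its precursors are known substrates of TUT4 and TUT7, and the miR-29 family because it is known for sites in collagen transcripts. The mature sequences are from RefSeq, with the seed in capitals.
hsa-let-7a-5p: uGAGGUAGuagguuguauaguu
hsa-let-7i-5p: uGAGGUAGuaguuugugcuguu
hsa-miR-29b-3p: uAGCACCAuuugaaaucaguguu

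Both let-7 members share a seed, whose match in a 3′ UTR is CTACCTC, and that of miR-29b is TGGTGCT. Annotated 3′ UTRs of the canonical transcripts were used, and all 34 collagen genes had one. A let-7 match was found in 9 of them, 26.5%, against 11% of the 14297 protein-coding genes tested that had a 3′ UTR. All 9 genes with a match were lower at the FDR, with a median log2 fold change of -1.45: COL1A1, COL3A1, COL5A2, COL24A1 and COL27A1 of the fibrillar class, COL4A4 and COL4A6 of the basement membrane class, COL14A1 and COL8A1. COL3A1 is among the genes that had to be lower to be listed. The call of COL8A1 was lost in DESeq2, without WT replicate 1 and without ΔTUT4/7 replicate 1. Of the 25 without a match, 10 were lower and 6 higher, with a median of -0.16. Among all protein-coding genes 37.8% of those with a match were lower and 31.6% of those without, with medians of -0.02 and 0.05. Falls in genes with a match included COL14A1 (-4.78) and COL24A1 (-4.00). Falls in genes without one included COL23A1 (-3.70), COL4A5 (-2.79), COL9A2 (-2.09) and COL25A1 (-1.86). The 3′ UTRs with a match were longer, with a median of 1816 bases against 1080 in collagen genes and 3095 against 1167 in protein-coding genes, and the part of length was not tested.

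The sites of 7 of these 9 genes are given here from the hg38 genome, on the strand of the gene, with the match in capitals. COL24A1 is chr1:85730043-85730072 (minus), COL3A1 is chr2:189012171-189012200 (plus), COL5A2 is chr2:189033001-189033030 (minus) and COL4A4 is chr2:227004627-227004656 (minus). COL27A1 is chr9:114311267-114311296 (plus), COL1A1 is chr17:50184695-50184724 (minus) and COL4A6 is chrX:108156717-108156746 (minus).
COL24A1: ccggtgatacaCTACCTCttacgtgttgcc
COL3A1: ccctattttaaCTACCTCaactggtcagaa
COL5A2: cttagcatgagCTACCTCatctctagaagc
COL4A4: gctttggatggCTACCTCctctttagcccc
COL27A1: gcccacgtttgCTACCTCccactgtgaaat
COL1A1: ttgctgaaagaCTACCTCgttcttgtcttg
COL4A6: actattcatggCTACCTCagaaagatttga

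A miR-29 match was more common, in 21 of the 34 collagen genes, 61.8%, against 16% of the protein-coding genes tested. It was found both in genes that fell and in genes that rose. Of the 21 genes 15 were lower and 3 higher, with a median log2 fold change of -1.103, and of the 13 without a match 4 were lower and 3 higher, with a median of -0.03. COL2A1, COL3A1 and COL21A1, which had to be lower to be listed, all carried a match and are among the 15. So are COL6A6 and COL8A1, whose calls were lost in DESeq2 and with some libraries left out. Every collagen gene with a let-7 match except COL14A1 also carried a miR-29 match. Those genes, all lower, are counted in both splits, so the splits are not separate observations. Among all protein-coding genes 36.9% of those with a match and 31.4% of those without were lower. Here too the 3′ UTRs with a match were longer, with a median of 1400 bases against 1080 in collagen genes. In protein-coding genes the medians were 2975.5 and 1099 bases, and the part of length was not tested. COL4A5, which fell, and COL4A1 and COL4A2, which rose, each carried a match, shown here with the match in capitals (chrX:108696473-108696502 plus, chr13:110150315-110150344 minus and chr13:110512208-110512237 plus).
COL4A5: gctgccgtcaaTGGTGCTactatatatgat
COL4A1: atgtcacaacaTGGTGCTacttcttcttct
COL4A2: aagggccatttTGGTGCTtattcttaactt

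Levels of the mature microRNAs were not analysed here, so a match describes the transcript and not its regulation in these cells.

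The genes that make, bind, remove and accompany collagens were read from lists of known roles. The enzymes and carriers of collagen biosynthesis were called at shares near the background. Of 34 tested, 12 were lower, 13 higher and 9 not called, 3 of them lower and 0 higher by at least 2-fold, with a median log2 fold change of 0.12, where 31.8% of protein-coding genes were lower and 37.9% higher. Prolyl hydroxylation, which stabilises the helix, had 7 of 10 genes higher and 1 lower, against the same 37.9% and 31.8%. P3H3, a prolyl 3-hydroxylase family member and the largest of these rises, was at 15.8, 15.7 and 16.3 CPM in WT. It was at 32.5, 30.8 and 32.1 CPM in ΔTUT4/7, without overlap (0.996 ± 0.07). Lysyl hydroxylation and glycosylation split, with 2 of 5 genes lower, 2 higher and 1 not called and a median of -0.07, against the same 31.8% and 37.9%. COLGALT1, which attaches galactose to hydroxylysine, was at 77.7, 76.6 and 80.3 CPM in WT and at 159, 145 and 155 CPM in ΔTUT4/7 (0.97 ± 0.05). COLGALT2 (-0.69 ± 0.08) and PLOD2 (-0.76 ± 0.05) were the genes of that role that were lower. Propeptide removal, the trimming that lets fibrils assemble, had 4 of 7 tested genes lower and 1 higher, against the same 31.8% and 37.9%. ADAMTS3, a procollagen N-proteinase, was at 27.6, 25.3 and 25.7 CPM in WT and at 10.5, 11.96 and 10.7 CPM in ΔTUT4/7 (-1.25 ± 0.09, edgeR adjusted p = 7.44e-11), and TLL1, of the BMP1 family of C-proteinases, changed by -2.07 ± 0.26. SEC24D, a coat protein of the vesicles that export procollagen, changed by -1.13 ± 0.06 among neighbours whose median was -0.94. SERPINH1, the collagen chaperone HSP47, was not called (0.10 ± 0.06).

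Of 9 collagen receptors tested, 5 were lower, 1 was higher and 3 were not called, with a median log2 fold change of -0.69, where 31.8% of protein-coding genes were lower and 69.8% called. DDR1, a receptor tyrosine kinase for collagen, was at 31.6, 28.4 and 29.9 CPM in WT and at 15.5, 11.4 and 14.3 CPM in ΔTUT4/7 (-1.11 ± 0.10, edgeR adjusted p = 2.73e-09). ITGA11, a collagen-binding integrin chain, changed by -1.43 ± 0.20, and MRC2, an endocytic collagen receptor, by -1.001 ± 0.09, at the 2-fold line. Of 6 breakdown genes tested 2 were lower, 2 higher and 2 not called, where 31.8% of protein-coding genes were lower and 37.9% higher. MMP1, MMP8, MMP9, MMP13 and TIMP4 of the same list were not tested. MMP2, a gelatinase, was at 6.15, 6.60 and 6.64 CPM in WT and at 1.62, 1.27 and 1.74 CPM in ΔTUT4/7 (-2.05 ± 0.17, edgeR adjusted p = 1.15e-09).

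All 7 tested matrix partners of collagen were lower, 4 of them by at least 2-fold. Among protein-coding genes 31.8% were lower, and 10.6% were lower by at least 2-fold. The list held 12 genes, of which DCN, BGN, LUM, FMOD and POSTN were not tested. SPARC passed the count limit through WT alone and had to be lower to be listed. FN1, fibronectin, was at 155, 167 and 174 CPM in WT and at 27.3, 24.2 and 26.0 CPM in ΔTUT4/7 (-2.67 ± 0.06, edgeR adjusted p = 1.55e-18). HSPG2, perlecan of the basement membrane, was at 50.3, 45.0 and 52.8 CPM in WT and at 17.0, 14.3 and 14.7 CPM in ΔTUT4/7 (-1.68 ± 0.08, edgeR adjusted p = 2.04e-13). Both stood well apart between the groups. TNXB changed by -1.64 ± 0.24, and SPARC, a collagen-binding matricellular protein, was at 1.02, 0.692 and 1.08 CPM in WT and at 0, 0 and 0.0511 CPM in ΔTUT4/7. The basement membrane partners NID1 (-0.78 ± 0.05), NID2 (-0.61 ± 0.07) and AGRN (-0.44 ± 0.07) fell by less than 2-fold.

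**Figure D5:**
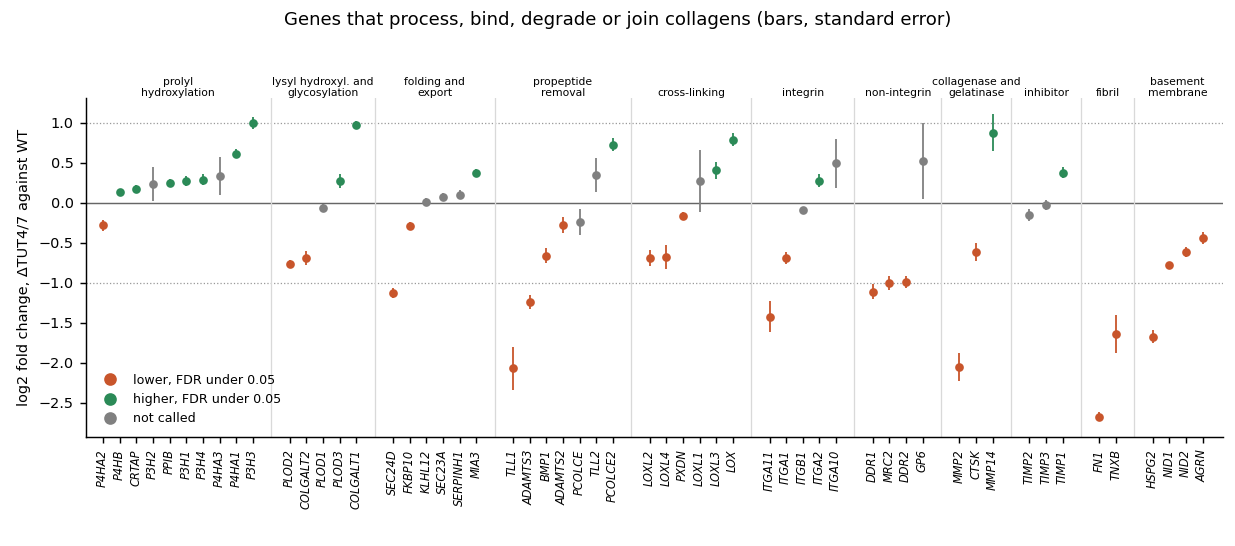
Fitted log2 fold change, ΔTUT4/7 against WT, with standard error (n = 3 libraries per group), of tested genes that process, bind, degrade or accompany collagens, grouped by role. SPARC is left out because 1 count remained in ΔTUT4/7, dotted lines mark a 2-fold change, and 13 biosynthesis genes are higher and 12 lower while the matrix partners shown are all lower.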

How the data were processed

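RNA-seq libraries of 3 WT and 3 ΔTUT4/7 samples were used. Per the labels and the study's methods, the authors aligned reads to hg38 with STAR 2.7.3a and quantified genes with the expectation-maximisation model of Partek Flow 10.0.22, and they deposited estimated counts per gene (expected counts, not normalized). These were rounded to whole numbers. Genes with a largest count above 12 were tested with edgeR 4.0.16 (TMM, robust glmQLFit and glmQLFTest, Benjamini-Hochberg adjustment over 23952 genes), and SE is the absolute log2 fold change divided by the root of F. The self-test on simulated counts was run before use. A single group term was fitted, and same-numbered libraries did not deviate together (correlations 0.0509, -0.0229 and -0.0145). Lengths, 3′ UTRs and exon overlaps came from GENCODE release 44, and 31 of the 34 collagen genes had the same start there. For 30 of them the deposited stop was 1 base beyond the GENCODE end, so 1 base was taken off every end printed. Gene-level counting pools all isoforms and shares reads between similar or overlapping genes by a model. Per-gene precision is set by depth, 18757228 to 33148937 counts per library, and the biological coefficient of variation was 6.44%. The collagen genes, the lists and the sequence features were chosen with earlier results of these data known. All collagen genes could be named. Partner genes were named if called at 2-fold or more. Some of the rest (P3H3, P4HA2, P4HB, COLGALT1, COLGALT2, PLOD2, SERPINH1, NID1, NID2, AGRN) were named after their values were seen. Other scalings, tools, filters, left-out libraries and a GC and length offset were tried as alternatives. A list of leukocyte markers is not reported here.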

Additional observations from a re-analysis of the deposited data

How the results depend on the processing

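The count of collagen genes lower by at least 2-fold stayed between 11 (limma on log2(CPM + 1) and a mean count minimum of 50) and 16 (library size alone). The count higher by at least 2-fold was 2 with a GC and length offset (COL12A1 and COL4A2), and from 0 to 2 with a library left out (COL18A1, COL12A1 or COL4A2, each near the 2-fold line). Over all genes the count of 4381 was 2091 in limma on log2(CPM + 1), with a pseudocount of 1, and 2162 with a mean count minimum of 50, where fewer genes were tested. The median over the collagen genes was -0.84 with that minimum and -0.87 after the neighbour median within 5 Mb was subtracted. That subtraction turned COL4A1 to -0.58 and COL4A2 to -0.11, and within 2 Mb COL4A1 to -0.36.

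The GC and length offset added calls for COL6A2 (-0.21) and COL6A3 (0.49) and ended that of COL6A6 (-0.39). Other values near 0 changed sign, and the cause was not tested. COL6A1 was -0.077 with upper-quartile factors, -0.091 with library size alone, -0.095 in limma, -0.040 with the mean count minimum and -0.10 with the GC and length offset. COL17A1 was -0.0059, -0.020 and -0.027 in the first 3 of these settings, and COL8A2 was -0.012 in limma. With a library left out, COL6A1 ranged from -0.035 to 0.061, COL17A1 from -0.025 to 0.27, COL6A2 from -0.075 to 0.019, COL8A2 from -0.19 to 0.40, COL26A1 from -0.13 to 0.10 and the change of the COL6A1 to COL6A2 ratio from -0.040 to 0.12. The replicate block gave 15 collagen genes lower and 0 higher by at least 2-fold and 4278 genes in all. Same-numbered libraries shared only a number. Depth limits COL2A1, COL3A1, COL21A1 and COL8A1 most.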

Other observations

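Collagen-named genes that are not protein-coding were also in the table. COL6A4P1, a transcribed pseudogene of a type VI chain, was at 4.92 ± 0.215 CPM in WT and 1.55 ± 0.359 CPM in ΔTUT4/7 (SD, n = 3), with a log2 fold change of -1.67 ± 0.19 SE. COL6A4P2 had 28 counts over WT and 3 over ΔTUT4/7. Reads of pseudogenes can be shared with related chains by the counting model. COL4A2-AS2, on the strand opposite to COL4A2, had 3, 2 and 1 counts in WT and 11, 7 and 8 in ΔTUT4/7, COL18A1-AS1 had 1, 2 and 4 in WT and 7, 11 and 12 in ΔTUT4/7, and COL25A1-DT, a divergent transcript of COL25A1, had 4, 10 and 9 in WT and 3, 0 and 0 in ΔTUT4/7. All 3 were under the count limit and were not tested.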
